A study of Mus musculus with 6 samples.

Results

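Fas, Tnfrsf10b, Tnfrsf1a, Casp1, Casp4, Casp8, Ripk3, Mlkl and Gsdmd are mouse genes of programmed cell death, and they are described here in liver. They were taken by symbol from a table of 55536 genes, which holds all 9 of them once each. The 3 libraries labelled H-VMP1 KO were made from liver of C57BL/6 mice aged 8 to 10 weeks that carried floxed Vmp1 and were injected intravenously with AAV8-TBG-cre. The 3 WT libraries came from mice of the same strain, age and floxed genotype that were injected with AAV8-TBG-null, and all livers were taken 2 weeks after injection. AAV8 is a virus that reaches liver cells efficiently, and the TBG promoter restricts expression of Cre to hepatocytes. Both groups carried the floxed gene and received a virus, so presence of Cre and loss of Vmp1 cannot be told apart. Vmp1 encodes a protein in the membrane of the endoplasmic reticulum with roles in autophagy and in moving lipids, and the study asked how its absence from hepatocytes affects lipoprotein secretion and steatohepatitis.

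Cells can be killed through several routes that share parts. Death receptors of the tumour necrosis factor (TNF) receptor family bind ligands outside the cell and recruit the adaptor FADD and the protease caspase-8, which starts apoptosis, in hepatocytes largely by cleaving the BCL-2 family protein BID. When caspase-8 is not active, the kinases RIPK1 and RIPK3 can instead activate MLKL, which breaches the plasma membrane in necroptosis. In pyroptosis the inflammatory caspases cut gasdermin D, whose freed end forms membrane pores. Casp1 encodes the caspase of inflammasomes, and mouse Casp4 encodes the protein known as caspase-11, a sensor of bacterial lipopolysaccharide in the cytosol. Liver macrophages express much of the inflammasome machinery.

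Expression was given as TPM, a share of all transcripts that corrects for transcript length and gives each library the same total, so levels may be compared between genes but the read depth is unknown. Differences between groups are log2 fold changes of TPM + 1 with their SE, labelled knockout minus WT, and the added 1 understates the change of genes near or under 1 TPM. A gene was called when its adjusted p was under 0.05 (limma, Benjamini-Hochberg over 12796 tested genes). Whether each library is a separate mouse is not in the labels, so the p-values speak only of the scatter between these libraries, part of which may be technical. Vmp1 itself was at 156.7, 136 and 137 TPM in the libraries labelled H-VMP1 KO, against 70.7, 96.5 and 88.6 TPM in WT libraries. Vmp1 was thus not lower in the labelled knockout, and its gene-level value does not check the removal of floxed exons, whose identity the sources used here do not give. All directions below depend on the labels being right. In the deposited TPM most genes were higher in the labelled knockout, with a median log2 fold change of 0.77. Each library was therefore also rescaled by the median of its gene-wise ratios to the geometric mean over all libraries (median-of-ratios scaling). Only genes detected in every library set this factor. The rescaling moved the median log2 fold change to -0.01. Values are given as deposited and after rescaling.

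All 9 genes were higher in the labelled knockout as deposited, and 5 of them stood far above the shift shared by most genes. Of all tested genes 74.5% were called higher as deposited, and 10.7% lower, so 9 of 9 must be read against a background in which a rise was the rule. After rescaling 6 of the 9 were called higher and 0 lower, where 35.1% of all tested genes were called higher and 36.6% lower. With quantile normalization, which forces the same distribution on each library, 7 were higher and 0 lower, where 37.2% of all tested genes were higher and 34.6% lower. The 5 genes were Tnfrsf10b, Ripk3, Mlkl, Casp1 and Casp4, each called higher by at least 1 log2 unit under both scalings, as were 13.2% of all tested genes. This group of 5 was formed after the values were seen. The other 4, Tnfrsf1a, Fas, Casp8 and Gsdmd, had log2 fold changes between -0.37 and 0.24 after rescaling. The median over the 9 was 2.04 as deposited and 1.46 after rescaling. Tnfrsf10b, Casp1 and Casp4 were under 1 TPM in every WT library and could enter the test only through the labelled knockout, so for these 3 the filter required a difference. The filter asks for 1 TPM in 3 libraries. Among WT libraries only library 2 reached that level of Ripk3, at 1.04 TPM, so Ripk3 also needed labelled knockout libraries to pass. In the lists below, passing only through the labelled knockout means under 1 TPM in every WT library, and genes like Ripk3 are not counted. With no filter beyond a TPM above 0, all 9 were still called higher and 0 lower, as were 44.3% and 5.7% of 28532 genes. In each of the 9 every labelled knockout library lay above every WT library as deposited, as in 75.5% of all tested genes.

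**Figure D1:**
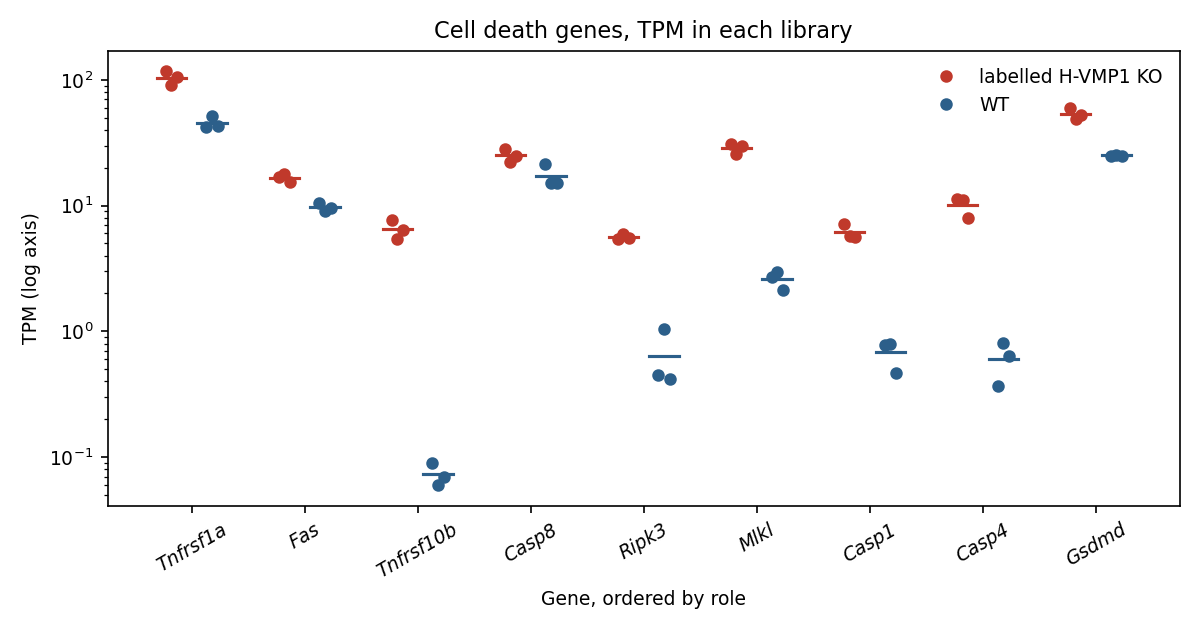
TPM of the 9 genes in each library on a log axis, with the 3 libraries labelled H-VMP1 KO in red to the left of the 3 WT libraries in blue and a bar at each group mean. Every labelled knockout library lies above every WT library for all 9 genes, and the gap is widest for Tnfrsf10b, at 6.52 against 0.0733 TPM on average.

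Markers of cells other than hepatocytes were higher in the labelled knockout. Marker calls are as deposited unless stated, where 74.5% of all tested genes were called higher and 10.7% lower. Ptprc, which encodes CD45 of all leukocytes, was at 10.0, 9.91 and 9.42 TPM in the labelled knockout and 0.64, 1.07 and 0.81 TPM in WT. Summed over 11 Kupffer cell and macrophage markers, the level was 1218 to 1690 TPM in the labelled knockout and 119.7 to 212 TPM in WT, and 10 of the 11 were called higher. The sum of 10 recruited monocyte markers was 319 to 375 TPM in the labelled knockout and 21.4 to 29.9 TPM in WT, with 10 of 10 called higher, 9 of which passed the filter only through the labelled knockout. Endothelial markers summed to 182 to 226 TPM in the labelled knockout and 65.8 to 73.1 TPM in WT, and stellate cell markers to 307 to 354 TPM in the labelled knockout and 56.9 to 62.2 TPM in WT. All 10 of each list were called higher as deposited, and 6 endothelial and 10 stellate cell markers after rescaling. Of 10 neutrophil markers, which summed to 29.3 to 61.6 TPM in the labelled knockout and 2.35 to 3.87 TPM in WT, 4 could be tested and all 4 were called higher, 3 of which passed the filter only through the labelled knockout, while Ly6g and Camp, both defining markers, were at 0 in all WT libraries and Ly6g did not exceed 0.13 TPM in the labelled knockout. T and NK cell markers summed to 7.52 to 12.3 TPM in the labelled knockout and 1.35 to 1.57 TPM in WT, and only Nkg7 of the 10 passed the filter, through the labelled knockout alone, and was called higher. B cell markers summed to 13.3 to 14.9 TPM in the labelled knockout and 2.32 to 6.48 TPM in WT. The 3 of 4 tested that were called higher passed the filter only through the labelled knockout, and the fourth, Ighm, was not called (adjusted p = 0.058 by limma). Bile duct cell markers (6 of 6 tested called higher, 4 of them passing the filter only through the labelled knockout) summed to 150.02 to 196 TPM in the labelled knockout and 28.2 to 43.0 TPM in WT. The 10 hepatocyte markers summed to 23219 to 26282 TPM in the labelled knockout and 50783 to 70092 TPM in WT, the highest sum of any list in both groups, and 7 of them were called lower and 0 higher in the labelled knockout. After rescaling 10 hepatocyte markers were called lower and 5 bile duct cell markers higher. Those called higher numbered 10 for macrophages, 10 for monocytes, 4 for neutrophils, 1 for T and NK cells and 3 for B cells. The shares of all tested genes were then 35.1% higher and 36.6% lower. In bulk tissue more cells of a type and more RNA of a gene per cell cannot be told apart. What these markers contribute to the calls below was not tested, and ratios to Ptprc and to the macrophage gene Adgre1 are given further on.

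The promoter windows of 7 of the 9 genes were found in RefSeq (GRCm38.p6), from 250 bases before to 50 after the annotated start. Tnfrsf10b and Gsdmd had no entry. Windows were searched on both strands for 3 motifs: the core of an interferon-stimulated response element (GAAA, then any 2 bases, then GAAA), a binding site of STAT factors (TTCNNNGAA) and a kappa B site (GGGA, any base, TT, any base, CC). These motifs were matched by 3.44%, 8.30% and 1.20% of all 32851 windows in the table, in that order. Counted by gene, the shares were 3.99%, 9.55% and 1.38% of 27025 genes. The response element core was matched in 0 of the 7 genes. The STAT letters were matched in Tnfrsf1a (TTCCGTGAA, from base -244 relative to the start) and in Fas (TTCTGGGAA, from base -93). The kappa B letters were matched in Casp4 (GGGATTTCCC, from base -92 of the first of its 2 overlapping windows), on the sense strand. No matches overlapped each other. The windows of the 4 strongly raised genes that have one are shown because all 4 rose by at least 1 log2 unit under both scalings, read 5′ to 3′ on the gene's strand in lower case, with the match in capitals. A match is a string of letters and says nothing of binding, and 3 of the 4 windows hold none.
Ripk3, chr14:55788808-55789107, minus strand: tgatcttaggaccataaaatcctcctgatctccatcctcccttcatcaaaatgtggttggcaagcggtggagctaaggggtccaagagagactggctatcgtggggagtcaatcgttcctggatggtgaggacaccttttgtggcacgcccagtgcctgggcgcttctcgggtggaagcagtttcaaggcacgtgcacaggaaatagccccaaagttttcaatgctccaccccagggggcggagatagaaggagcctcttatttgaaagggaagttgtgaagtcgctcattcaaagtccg
Mlkl, chr8:111338156-111338455, minus strand: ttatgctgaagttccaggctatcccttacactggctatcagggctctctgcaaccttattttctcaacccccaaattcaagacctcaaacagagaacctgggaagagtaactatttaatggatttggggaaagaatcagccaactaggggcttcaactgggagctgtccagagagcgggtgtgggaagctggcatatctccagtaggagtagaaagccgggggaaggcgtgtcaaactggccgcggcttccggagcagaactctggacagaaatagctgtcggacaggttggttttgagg
Casp1, chr9:5298267-5298566, plus strand: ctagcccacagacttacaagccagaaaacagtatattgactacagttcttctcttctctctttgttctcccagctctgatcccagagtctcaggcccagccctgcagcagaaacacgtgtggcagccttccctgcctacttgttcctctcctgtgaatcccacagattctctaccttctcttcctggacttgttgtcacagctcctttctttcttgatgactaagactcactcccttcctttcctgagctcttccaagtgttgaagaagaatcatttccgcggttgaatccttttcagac
Casp4, chr9:5308599-5308898, plus strand: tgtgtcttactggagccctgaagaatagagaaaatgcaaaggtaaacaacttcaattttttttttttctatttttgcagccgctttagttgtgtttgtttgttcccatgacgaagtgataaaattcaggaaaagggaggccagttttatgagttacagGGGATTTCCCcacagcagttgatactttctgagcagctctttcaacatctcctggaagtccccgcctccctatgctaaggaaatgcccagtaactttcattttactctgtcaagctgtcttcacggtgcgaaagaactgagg

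Of the 3 death receptors, Tnfrsf10b had the largest change under both scalings. This gene encodes the mouse receptor for the ligand TRAIL, and it was at 7.72, 5.45 and 6.38 TPM in the labelled knockout and at 0.09, 0.06 and 0.07 TPM in WT. The ratio of these means was 88.9, with the WT libraries all near the bottom of the measured range. Its log2 fold change was 2.80 ± 0.12 (adjusted p = 8.2e-08 by limma), and 2.36 ± 0.10 after rescaling (adjusted p = 1.7e-06). With a pseudocount of 0.1 in place of 1 the first value was 5.24, because the WT levels lie far under 1 TPM. Tnfrsf10b (ENSMUSG00000022074) lies on GRCm38 chromosome 14 from 69767472 to 69784411 on the plus strand.

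Tnfrsf1a, which encodes the main receptor for TNF on most cells, was the most abundant of the 9 in both groups. It was at 116.6, 91.5 and 104.6 TPM in the labelled knockout and at 42.2, 51.9 and 43.0 TPM in WT, with no overlap. The log2 difference was 1.17 ± 0.12 (adjusted p = 1.3e-05 by limma) as deposited and 0.24 ± 0.09 (adjusted p = 0.042) after rescaling. That second call was lost when labelled knockout library 1 (adjusted p = 0.13) or 3 (0.10), or WT library 1 (0.12) or 3 (0.092), was left out. Fas, the receptor for Fas ligand through which hepatocytes are readily killed, was at 16.8, 17.9 and 15.4 TPM in the labelled knockout and at 10.5, 9.11 and 9.59 TPM in WT. Its log2 fold change of 0.72 ± 0.10 (adjusted p = 1.1e-04 by limma) lay just under the median of all tested genes. After rescaling Fas was at -0.15 ± 0.11 (adjusted p = 0.23), and the scaled libraries of the groups overlapped, at 11.7, 13.5 and 11.0 in the labelled knockout and 14.6, 11.9 and 14.1 in WT. Tnfrsf1a (ENSMUSG00000030341) lies on GRCm38 chromosome 6 from 125349362 to 125362484 and Fas (ENSMUSG00000024778) on chromosome 19 from 34290666 to 34327772, both on the plus strand.

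Casp8, the initiator caspase shared by the 3 receptors, had the smallest change of the 9 as deposited. It was at 28.1, 22.4 and 24.9 TPM in the labelled knockout and at 21.6, 15.0 and 15.2 TPM in WT. The lowest labelled knockout library stood barely above the highest WT library. The log2 fold change was 0.53 ± 0.15 (adjusted p = 0.0083 by limma), below that of most tested genes, and it turned to -0.37 ± 0.15 (adjusted p = 0.056) after rescaling. Without WT library 2 the scaled value was -0.50 with adjusted p = 0.015, and without WT library 1 it was -0.20 with adjusted p = 0.11. The as-deposited call was also lost when TPM was recomputed without the major urinary protein genes (0.28, adjusted p = 0.14) or without mitochondrially encoded and the 20 most abundant genes (0.35, adjusted p = 0.075). Casp8 (ENSMUSG00000026029) lies on GRCm38 chromosome 1 from 58795374 to 58847503 on the plus strand.

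Both necroptosis effectors rose strongly. Mlkl, whose product forms the lethal membrane complex, had 30.6, 25.8 and 29.5 TPM in the labelled knockout and 2.71, 2.96 and 2.12 TPM in WT, an 11.0-fold ratio of means. Its log2 fold change of 3.05 ± 0.12 (adjusted p = 5.0e-08 by limma) was the largest of the 9 on this scale and exceeded that of 97.7% of all tested genes. After rescaling it was 2.24 ± 0.09 (adjusted p = 1.2e-06). Ripk3, the kinase that activates MLKL, had 5.45, 5.89 and 5.57 TPM in the labelled knockout and 0.45, 1.04 and 0.42 TPM in WT. WT library 2 held more than the other WT libraries, but the groups did not overlap. Its log2 fold change was 2.04 ± 0.15 (adjusted p = 1.2e-06 by limma) and 1.46 ± 0.16 (adjusted p = 9.9e-05) after rescaling. Mlkl (ENSMUSG00000012519) lies on chromosome 8 from 111311797 to 111338177 and Ripk3 (ENSMUSG00000022221) on chromosome 14 from 55784995 to 55788865, both on the minus strand of GRCm38.

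The inflammatory caspases rose as well, while gasdermin D was not called after rescaling. Casp4 had 11.4, 11.1 and 7.92 TPM in the labelled knockout and 0.37, 0.81 and 0.64 TPM in WT, a 16.7-fold ratio of means. The log2 difference was 2.79 ± 0.16 (adjusted p = 3.2e-07 by limma), and 2.17 ± 0.17 (adjusted p = 1.9e-05) after rescaling. Casp1 had 7.20, 5.70 and 5.67 TPM in the labelled knockout and 0.78, 0.79 and 0.47 TPM in WT, a 9.10-fold ratio of means. Its log2 fold change was 2.10 ± 0.13 (adjusted p = 5.0e-07 by limma), and 1.5 ± 0.12 (adjusted p = 1.9e-05) after rescaling. The pair are neighbours on chromosome 9 of GRCm38, Casp1 (ENSMUSG00000025888) from 5298517 to 5307265 and Casp4 (ENSMUSG00000033538) from 5308828 to 5336783, with 1562 bases between them and both on the plus strand. In GENCODE M21 no other gene shares exon bases with any of the 9.

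Gsdmd, the substrate of both inflammatory caspases, was already abundant in WT liver. It was at 59.4, 48.9 and 52.4 TPM in the labelled knockout and at 25, 25.4 and 24.7 TPM in WT. The WT libraries were nearly identical, and the groups did not overlap. The log2 fold change was 1.06 ± 0.10 (adjusted p = 6.2e-06 by limma) as deposited and 0.14 ± 0.08 (adjusted p = 0.12) after rescaling. With quantile normalization Gsdmd stayed called (0.37, adjusted p = 0.0048 by limma). Gsdmd (ENSMUSG00000022575) lies on GRCm38 chromosome 15 from 75862327 to 75867408 on the plus strand.

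**Figure D2:**
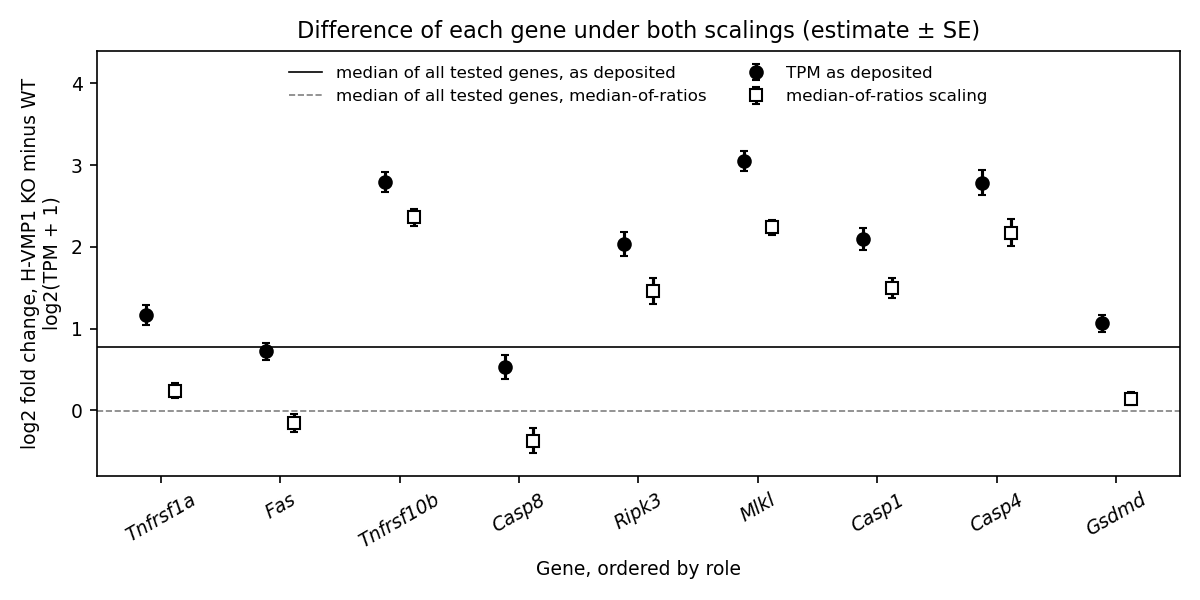
Log2 fold change ± SE of each gene, labelled H-VMP1 KO minus WT (n = 3 each), with TPM as deposited (filled circles) and after rescaling (open squares), and lines at the median of all tested genes. Tnfrsf10b, Ripk3, Mlkl, Casp1 and Casp4 stay at 1.46 or above with both scalings, and Tnfrsf1a, Fas, Casp8 and Gsdmd lie close to the lines.

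The order of the levels changed between the groups. In the labelled knockout the order of mean TPM was Tnfrsf1a, Gsdmd, Mlkl, Casp8, Fas, Casp4, Tnfrsf10b, Casp1 and Ripk3. There Mlkl and Casp8 did not differ beyond their spread, nor did Tnfrsf10b and Casp1, nor Casp1 and Ripk3. In WT the order was Tnfrsf1a, Gsdmd, Casp8, Fas, Mlkl, Casp1, Ripk3, Casp4 and Tnfrsf10b. There Casp1, Ripk3 and Casp4, at means of 0.68, 0.637 and 0.607 TPM, did not differ beyond their spread. Mlkl thus stood at the level of Casp8 in the labelled knockout (28.6 ± 2.51 and 25.1 ± 2.86 TPM), while in WT it was well below it (2.6 ± 0.431 and 17.3 ± 3.75 TPM, SD, n = 3).

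Ratios within a library do not depend on the scaling between libraries, and they set the genes against leukocyte RNA. Relative to Ptprc, Mlkl was at 3.06, 2.6 and 3.13 in the labelled knockout and 4.23, 2.77 and 2.62 in WT, and the groups overlapped. Ripk3 relative to Ptprc was at 0.544, 0.594 and 0.591 in the labelled knockout and 0.703, 0.972 and 0.519 in WT, again with overlap. Casp1 overlapped too, at 0.719, 0.575 and 0.602 in the labelled knockout and 1.22, 0.738 and 0.580 in WT. For these 3 genes the ratio to Ptprc did not separate the groups, with log2 differences of -0.10 for Mlkl, -0.30 for Ripk3 and -0.36 for Casp1 (two-sided exact permutation p = 0.8, 0.4 and 0.4). Their ratios to Adgre1 also overlapped, with log2 differences of 0.51, 0.32 and 0.26.

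Tnfrsf10b was higher relative to both leukocyte genes. Its ratio to Ptprc was 0.771, 0.550 and 0.677 in the labelled knockout and 0.141, 0.056 and 0.086 in WT, a log2 difference of 2.91, and its log2 difference relative to Adgre1 was 3.52. Casp4 was above Ptprc and Adgre1 by less, at log2 differences of 0.54 and 1.16 without overlap. Against Cd53, another leukocyte gene, the Casp4 difference was -0.00034 and the groups overlapped, and Tnfrsf10b was still at 2.36. Against Cd53, Ripk3, Mlkl and Casp1 were lower without overlap, at log2 differences of -0.84, -0.64 and -0.90, so the overlap seen with Ptprc depends on the leukocyte gene chosen. Against Csf1r, a macrophage gene, Mlkl was higher without overlap at 0.71, Ripk3 (0.51) and Casp1 (0.45) overlapped, and Casp4 (1.35) and Tnfrsf10b (3.71) were higher without overlap. Tnfrsf1a, Fas, Casp8 and Gsdmd were lower relative to Ptprc, at log2 differences of -2.38, -2.79, -3.02 and -2.48, with no overlap between groups. Ptprc itself had a larger log2 fold change as deposited than 95.7% of all tested genes, and Adgre1 than 95.6%. A fall relative to them is thus not particular to these genes. Each ratio without overlap had an exact permutation p of 0.1, the smallest that 3 libraries against 3 allow. After Benjamini-Hochberg adjustment this was 0.15 over the 18 ratios to Ptprc and Adgre1 and 0.12 over the 18 to Cd53 and Csf1r, so none passed 0.05.

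**Figure D3:**
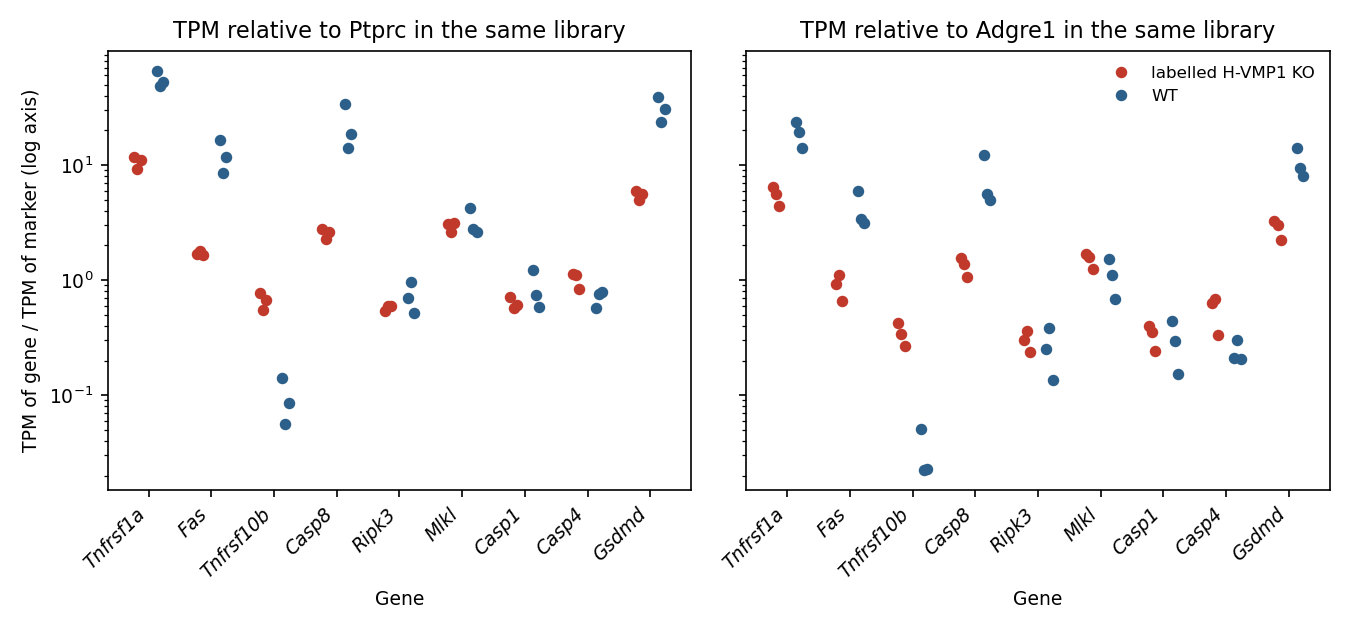
TPM of each gene divided by that of Ptprc (left) or Adgre1 (right) in the same library, on a log axis, with labelled H-VMP1 KO libraries in red left of WT libraries in blue. Ripk3, Mlkl and Casp1 overlap between the groups in both panels, Tnfrsf10b is higher in the labelled knockout, and Tnfrsf1a, Fas, Casp8 and Gsdmd are lower. Ptprc and Adgre1 themselves rose more as deposited than 95.7% and 95.6% of all tested genes.

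The other death ligands and receptors that could be tested were all higher as deposited. Of 18 genes listed, 13 were tested, 13 were higher as deposited, and after rescaling 9 were higher and 2 lower. Those 2 were Tnfrsf1b (-0.51) and Ltbr (-0.19), named for that reason after their values were seen. For comparison, 74.5% of all tested genes were higher as deposited, and 35.1% were higher and 36.6% lower after rescaling. The list had medians of 1.47 as deposited and 0.97 on rescaling, and 9 of the 13 passed the filter only through the labelled knockout. Tnfrsf12a, the receptor for the cytokine TWEAK, averaged 167.5 ± 28.4 TPM in the labelled knockout and 5.89 ± 1.22 TPM in WT (SD, n = 3), a log2 fold change of 4.61 ± 0.16. Tnfrsf21, which encodes death receptor DR6, rose by 2.47, Tnfrsf11b, a soluble decoy that binds TRAIL as well as RANKL, by 2.12, and Tnfrsf23, a mouse TRAIL decoy receptor, by 2.14 on the log2 scale. Tnfrsf23 has a close paralog, Tnfrsf22, so reads may be shared between them. Of the ligands, Tnf was at 1.65, 1.39 and 1.07 TPM in the labelled knockout and at 0.04, 0.02 and 0.03 TPM in WT (log2 fold change 1.19 ± 0.11). Tnfsf10, which encodes TRAIL, had a log2 fold change of 0.73 as deposited and 0.25 after rescaling, where it was not called (adjusted p = 0.13 by limma). Fasl, the ligand of Fas, stayed under the filter at 0.12, 0.48 and 0.13 TPM in the labelled knockout and at 0, 0.05 and 0 TPM in WT.

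Receptor adaptors lay near the shared shift, while some inhibitors of the pathway stood above it. Of 20 adaptors and brakes, all tested, 18 were higher and 0 lower as deposited, and 7 were higher and 4 lower after rescaling. The matching shares of all tested genes were 74.5% and 10.7% as deposited, and 35.1% and 36.6% after rescaling. The list's median was 0.89 as deposited and 0.02 after rescaling, and 2 passed the filter only through the labelled knockout. Fadd, the adaptor that brings caspase-8 to the receptors, was at 4.84 ± 0.11 TPM in the labelled knockout and 2.79 ± 0.29 TPM in WT (SD, n = 3), and its log2 fold change of 0.63 turned to -0.11 after rescaling. Tradd, an adaptor of the TNF receptor, had log2 fold changes of 0.97 as deposited and 0.11 after rescaling, and Ripk1, the kinase upstream of RIPK3, of 1.11 and 0.24. Tnfaip3 (A20) and Tnip1, which restrain TNF signalling, rose by 2.67 and 2.83 as deposited and stayed higher, by 2.06 and 2.01, after rescaling. Ikbkg, the regulatory subunit of the NF-kappa B kinase, rose by 1.74, and Faim, an inhibitor of Fas-induced apoptosis, by 1.55 as deposited. Cflar encodes FLIP, the catalytically inactive relative of caspase-8 that blocks it, and was at 25.4, 21.9 and 23.3 TPM in the labelled knockout and 22.8, 25.6 and 21.3 TPM in WT. The log2 difference was 0.02 ± 0.11 (adjusted p = 0.88 by limma) as deposited and -0.89 (adjusted p = 1.6e-05) after rescaling.

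The other caspases and apoptosome genes were called about as often as all tested genes. Of 15 listed genes 14 were tested, 11 were higher and 0 lower as deposited, and 5 were higher and 6 lower after rescaling. Among all tested genes 74.5% were higher and 10.7% lower as deposited, and 35.1% higher and 36.6% lower after rescaling. The list's median was 0.74 as deposited and -0.09 after rescaling, and 2 passed the filter only through the labelled knockout. Casp12, a relative of Casp4, was at 12.9, 11.3 and 8.25 TPM in the labelled knockout and at 0.31, 0.37 and 0.49 TPM in WT, and rose by 3.07 ± 0.15. Apaf1, the scaffold on which caspase-9 is activated, rose by 2.34, and after rescaling by 1.73. Htra2, a mitochondrial protease released during apoptosis, rose by 1.25 as deposited and by 0.38 after rescaling. Casp9 was called higher as deposited (0.45) and lower after rescaling (-0.40). Casp6 was at 19.0, 26.4 and 21.2 TPM in the labelled knockout and at 18.7, 26.2 and 18.2 TPM in WT. It was not called as deposited (0.08, adjusted p = 0.65 by limma) and was called lower after rescaling (-0.82, adjusted p = 0.0026).

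BCL-2 family genes that rose included both killing and protective members. Of 18 listed genes 17 were tested, 14 were higher and 0 lower as deposited, and 12 were higher and 2 lower after rescaling. Over all tested genes 74.5% were higher and 10.7% lower as deposited, and 35.1% higher and 36.6% lower after rescaling. The list's median was 1.64 as deposited and 0.74 after rescaling, and 5 of the 17 passed the filter only through the labelled knockout. Bax, a pore-forming effector, was at 140.0, 134 and 144 TPM in the labelled knockout and at 22.8, 26.2 and 21.3 TPM in WT, a log2 fold change of 2.53 ± 0.10. Its partner Bak1 rose by 2.23, and Bid, the substrate through which caspase-8 engages them, by 1.42 as deposited and 0.55 after rescaling. The protective gene Bcl2l1 (BCL-XL) averaged 75.2 ± 14.6 TPM in the labelled knockout and 15.6 ± 5.58 TPM in WT (SD, n = 3), rising by 2.24 ± 0.28. Bcl2a1b, a protective gene of leukocytes, rose by 3.90, and its near-identical copies Bcl2a1a and Bcl2a1d make its single value uncertain.

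Among partners of necroptosis Zbp1 changed most. This sensor of nucleic acids in the Z conformation, which can activate RIPK3, was at 115.3, 88.8 and 96.0 TPM in the labelled knockout and at 7.79, 9.14 and 9.85 TPM in WT. Its log2 fold change was 3.34 ± 0.13 (adjusted p = 3.8e-08 by limma), and 2.45 after rescaling. Of the 13 genes listed, all were tested, 12 were higher and 0 lower as deposited, and 6 were higher and 1 lower after rescaling. As deposited 74.5% of all tested genes were higher and 10.7% lower, and after rescaling 35.1% and 36.6%. The list's median was 1.11 as deposited and 0.22 after rescaling, against 0.77 and -0.01 for all tested genes. Chmp4b, a subunit of the ESCRT machinery that repairs the plasma membrane, rose by 2.19 as deposited and by 1.26 after rescaling. Hsp90aa1, a chaperone, rose by 1.56 and 0.62 as deposited and after rescaling, and Itpk1, an inositol phosphate kinase, by 1.35 and 0.49.

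Of 31 listed inflammasome and pyroptosis genes 18 were tested, 14 were higher and 2 lower as deposited, and 13 were higher and 5 lower after rescaling. Of all tested genes 74.5% were higher and 10.7% lower as deposited, so the as-deposited counts lie near the background. After rescaling these background shares were 35.1% and 36.6%. The list's median was 1.55 as deposited and 0.90 after rescaling, and 6 of the 18 passed the filter only through the labelled knockout. With no filter 21 of 28 were higher and 2 lower as deposited. Of the remaining genes 10 were under the filter and Gsdma3, Gsdmc2 and Gsdmc3 were listed at 0 in all libraries. Nlrp6, an inflammasome gene of gut and liver, was at 2.31, 7.24 and 2.56 TPM in the labelled knockout and at 50.5, 47.2 and 54.7 TPM in WT. It fell by 3.49 ± 0.36 on the log2 scale (adjusted p = 1.5e-04 by limma), and labelled knockout library 2 held more of it than the other 2. Nlrp12 was the other gene called lower, named for that reason after its values were seen, with a log2 fold change of -1.55.

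Pycard, which encodes the adaptor ASC that links sensors to caspase-1, was at 5.08, 5.57 and 5.48 TPM in the labelled knockout and at 0.63, 0.49 and 0.59 TPM in WT. It rose by 2.02 as deposited and by 1.44 after rescaling. The sensors Nlrp3 and Aim2 rose by 1.17 and 1.95 as deposited, and Nlrp3 averaged only 1.57 ± 0.277 TPM in the labelled knockout and 0.137 ± 0.0503 TPM in WT (SD, n = 3). Naip2, a sensor of bacterial secretion proteins with close paralogs, rose by 3.11, and Gbp2 and Gbp3, interferon-induced GTPases that expose bacterial lipopolysaccharide to caspase-11, by 3.06 and 2.75. Because Naip and Gbp genes have similar copies, their single values are uncertain. Gsdme, another gasdermin, was at 4.05, 3.24 and 3.60 TPM in the labelled knockout and at 0.49, 0.29 and 0.39 TPM in WT, and rose by 1.73. Ninj1, which ruptures the membrane late in lytic death, averaged 225 ± 13.2 TPM in the labelled knockout and 86.6 ± 5.03 TPM in WT (SD, n = 3), rising by 1.37 as deposited and by 0.43 after rescaling.

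Of the cytokines that caspase-1 matures, Il1b was called higher and Il18 was not called as deposited. Il1b was at 5.14, 7.90 and 2.82 TPM in the labelled knockout and at 1.05, 0.43 and 0.51 TPM in WT, a log2 fold change of 1.85 ± 0.32 (adjusted p = 0.0014 by limma). The labelled knockout libraries differed widely among themselves but none overlapped WT. Il18 was at 11.0, 12.9 and 12.9 TPM in the labelled knockout and at 11.2, 14.6 and 14.9 TPM in WT, with overlap. The log2 difference was -0.13 (adjusted p = 0.38 by limma) as deposited and -1.0 (adjusted p = 3.9e-04) after rescaling.

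Transcription factors of interferon, NF-kappa B and p53 signalling, which are known to control several of the 9 genes, were mostly higher. Of 13 listed and tested, 11 were higher and 0 lower as deposited, and 8 were higher and 4 lower after rescaling. All tested genes were higher in 74.5% and lower in 10.7% as deposited, and in 35.1% and 36.6% after rescaling. The list's medians were 1.61 and 0.71, and 1 gene passed the filter only through the labelled knockout. Irf7 was at 131 ± 3.97 TPM in the labelled knockout and 23.3 ± 4.22 TPM in WT (SD, n = 3) and rose by 2.45, and Irf8, a factor of myeloid and B cells, rose by 2.54. Relb and Nfkb2, partners in noncanonical NF-kappa B signalling, rose by 2.70 and 2.50 as deposited and by 2.11 and 1.73 after rescaling. Irf1 rose by 1.61 and 0.71, and Trp53, which encodes p53, by 1.73 and 0.84 as deposited and after rescaling.

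**Figure D4:**
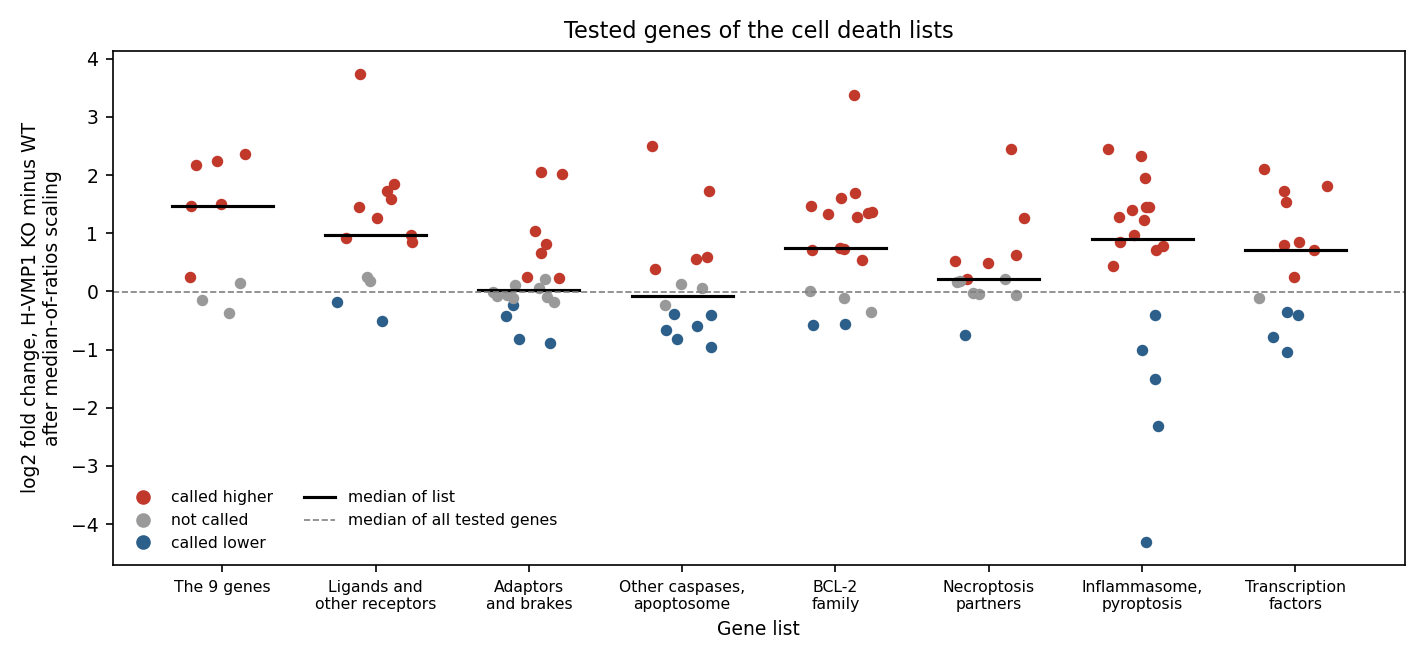
Log2 fold change of each tested gene, labelled H-VMP1 KO minus WT, after rescaling, for the 9 genes and 7 lists of related genes, with red, grey and blue points for genes called higher, not called and called lower and a black bar at each list's median. The 9 genes have a median of 1.46, and the medians of adaptors and of other caspases lie near the dashed line of all tested genes. Single adaptors and brakes reach from Tnfaip3 at 2.06 to Cflar at -0.89, and other caspases from Casp12 at 2.49 to Dffa at -0.95. The inflammasome list reaches from Naip2 at 2.45 to Nlrp6 at -4.30.

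The tested genes whose profile over the 6 libraries lay nearest to the mean profile of the 9 were, by Euclidean distance among 7946 candidates, Mfsd12 (0.096), Lcp1 (0.10), Lrrk1 (0.105), Svbp (0.12) and Cd151 (0.12). Profiles were log2(TPM + 1) values centred on each gene's own mean. Candidates had a mean of at least 5 TPM and excluded predicted genes and the 9 themselves. Lcp1 encodes an actin-bundling protein of leukocytes and was at 117, 96.3 and 102.5 TPM in the labelled knockout and at 27.8, 31.1 and 26.8 TPM in WT. The log2 fold changes of these 5 genes as deposited were 1.74 to 1.87. None of the 9 lay in that range, since their mean profile joins genes at 2.04 or above with genes at 1.17 or below.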

How the data were processed

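RNA was measured in 6 mouse liver libraries, 3 labelled H-VMP1 KO and 3 WT. Total RNA was extracted with Trizol from snap-frozen tissue and sequenced on an Illumina instrument, per the labels' protocols. The authors deposited 1 table of TPM per gene, and per the submitters' processing notes STAR 2.6.1c, RSEM, edgeR and the build mm10 were used, with no role given for each. Read numbers cannot be had from TPM, which leaves depth unknown and gives no counting error. The table's 55536 identifiers were matched to GENCODE M21 (GRCm38), with 55450 found.

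A gene entered the test at 1 TPM or more in 3 or more libraries, and was tested on log2(TPM + 1) with limma 3.58.1 (trend and robust variances, R 4.3.3), with Benjamini-Hochberg adjustment over all tested genes and a threshold of 0.05. The procedure was tested on simulated data. Ratios within a library were compared by exact permutation. The 9 genes and the gene lists were chosen with earlier results of these data known. Outside the 9, genes were named if they were among up to 4 called genes of a list with the largest change and a mean of at least 1 TPM in either group, on a preset list of pathway genes, or among the 5 nearest profiles. Some genes named by this rule are not reported here. Alternatives were other pseudocounts, filters, scalings, thresholds and variance models, a replicate block, and leaving out each library.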

Additional observations from a re-analysis of the deposited data

How the results depend on the processing

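Changes of pseudocount, filter, variance model or threshold, and leaving out any library, kept all 9 genes called higher as deposited. Scaling mattered more. Genes called higher numbered 4496 with median-of-ratios scaling, 4496 in both scalings and 4757 with quantile normalization, and genes called lower 4689 and 4429. Leaving out 1 library gave 9187 to 9604 higher and 1259 to 1348 lower. Fas was at -0.15 with median-of-ratios scaling and -0.065 with quantile normalization, and Casp8 at -0.37 and -0.24. Gsdmd was at 0.14 with median-of-ratios scaling. Casp8 was at 0.35 after rescaling without mitochondrial and the top 20 genes and 0.28 without Mup genes. Casp6 under these 4 scalings was at -0.82, -0.68, -0.11 and -0.17, and Cflar at -0.89, -0.73, -0.17 and -0.24. Casp9 was at -0.40 and -0.34 and Fadd at -0.11 and -0.21 with the first 2, and Vmp1 at -0.18 with median-of-ratios scaling. Genes called higher in the lists numbered 7 with median-of-ratios scaling and 9 with quantile normalization for adaptors, 5 and 6 for other caspases, and 6 and 10 for necroptosis partners. The cause was not tested.

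With median-of-ratios scaling and 1 library left out, an alternative chosen after seeing the data, Tnfrsf1a ranged over 0.18 to 0.30, Fas -0.24 to -0.097, Casp8 -0.50 to -0.20 and Gsdmd 0.096 to 0.18. As deposited Casp6 ranged over -0.044 to 0.24 and Cflar over -0.041 to 0.086. Ratios ranged over -0.23 to 0.12 for Mlkl to Ptprc, -0.083 to 0.67 for Ripk3 to Adgre1 and -0.16 to 0.61 for Casp1 to Adgre1. With Cd53 in place of Ptprc, Casp4 was at -0.00034.

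Same-numbered libraries of the groups deviated with correlations of 0.076, 0.04 and -0.115, and differently numbered ones with -0.143 to 0.098. These values show no pairing by number, but so few libraries cannot exclude one. With the replicate block 9427 genes were called higher and 1333 lower, and all 9 genes stayed higher. With the block and median-of-ratios scaling together, also chosen after seeing the data, Tnfrsf1a was at 0.24 (adjusted p = 0.086 by limma), Fas at -0.15, Casp8 at -0.37 (adjusted p = 0.022) and Gsdmd at 0.14.

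Read depth is unknown, so genes near 0 TPM, such as Tnfrsf10b in WT, have no known counting error. Without spike-ins neither scaling can be shown to be the right one, and 3 libraries against 3 cannot bring an exact permutation test under 0.1.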

Other observations

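Ratios between partners within a library, for 6 pairs chosen after the values were seen, do not depend on the scaling between libraries. Ripk3 relative to Ripk1, the kinase it pairs with, was 0.275, 0.350 and 0.274 in the labelled knockout and 0.058, 0.120 and 0.051 in WT, a log2 difference of 2.07. Mlkl relative to Ripk3 was 5.61, 4.38 and 5.30 in the labelled knockout and 6.02, 2.85 and 5.05 in WT, and the groups overlapped (two-sided exact permutation p = 0.8). Casp8 relative to its inhibitor Cflar was 1.11, 1.02 and 1.07 in the labelled knockout and 0.945, 0.585 and 0.713 in WT. Gsdmd relative to Casp1 was 8.25, 8.57 and 9.24 in the labelled knockout and 32.1, 32.1 and 52.6 in WT, so WT liver held more gasdermin D transcript per transcript of the protease. Casp4 was higher relative to Casp1 by 0.90 and lower relative to Casp12, with a log2 difference of -0.68. The 5 pairs without overlap each had an exact permutation p of 0.1, the smallest the design allows, and 0.12 after adjustment over the 6 pairs, so none passed 0.05.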
